A study of Homo sapiens with 12 samples.

Results

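The 7 genes TWIST2, SNAI2, CCN1, CD44, LUM, COL8A1 and S100A6 are genes linked to the mesenchymal state of neuroblastoma. They were chosen by name from a deposited table of 1676 genes, in which all 7 were found (CCN1 is listed there under its older symbol CYR61). The table was made from SH-SY5Y, an established line of human neuroblastoma cells, 24 h after transfection with a construct encoding the microtubule-binding protein tau. The 4 constructs were wild-type tau (Tau-WT), tau with a lysine replaced by glutamine (Tau-K174Q), tau with a serine replaced by glutamate (Tau-S199E) and the double replacement (Tau-K174Q-S199E), with 3 libraries each. Glutamine resembles an acetylated lysine and glutamate a phosphorylated serine, so these replacements serve as mimics of the modifications. All 12 libraries came from cells given a tau construct, and each comparison is therefore between forms of tau. Neither the tau isoform nor the promoter of the constructs was given in the sources used here.

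Neuroblastoma cells can move between an adrenergic state, which resembles sympathetic neuroblasts and depends on factors such as GATA3 and HAND2, and a mesenchymal state, which resembles migratory neural crest cells. The mesenchymal state is known for transcription factors of the TWIST and SNAIL families, for AP-1 and YAP activity, for matrix and adhesion genes such as CD44, and for resistance to drugs. SH-SY5Y is usually placed near the adrenergic end. The genes are described below by role, from the transcription factors to the matricellular protein CCN1, the receptor CD44, the matrix proteins LUM and COL8A1, and the calcium-binding protein S100A6.

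The table is a selection. Each gene carries 1 deposited log2 fold change and 1 deposited adjusted p-value, the latter at most 0.0499, for a contrast that the header does not name. The sign of the fold change was that of the interaction, meaning the difference K174Q makes in tau with S199E less the one it makes in tau without it, in 1676 of 1676 genes. It was opposite to the sign of Tau-S199E minus Tau-WT in 1676 as well. The library values were standardised by the authors, to mean 0 and SD 1 within a gene. Values below are in these SD units, the depth of the libraries is unknown, and levels cannot be compared between genes. In these bulk samples, fewer cells of a type and less RNA per cell cannot be told apart. The labels do not say that the 3 libraries of a construct were separate cultures, and p-values therefore reflect only how far these libraries spread, possibly for technical reasons.

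The labelled cell type could not be checked from these values. Of 36 adrenergic transcription factors and noradrenergic genes, only KLF13 was in the table, and of 12 Schwann cell and glial markers none was. Since genes enter the table for a response and not for a level, this says nothing on how high these markers were. KLF13 had a log2 fold change of -2.10 in the authors' deposited table, the sign of the 7 genes and of 52.9% of the table. Its means were -1.05 ± 0.52 under Tau-WT, 0.65 ± 0.29 under Tau-K174Q, 0.83 ± 0.67 under Tau-S199E and -0.44 ± 1.04 under Tau-K174Q-S199E (SD, n = 3). This adrenergic gene thus had the direction of the 7 genes. Of 41 mesenchymal transcription factors 5 were listed, and of 48 mesenchymal surface, matrix and cytoskeleton genes 7. Defining mesenchymal genes such as PRRX1, VIM, FN1 and YAP1 were not among them. The state of the cells can therefore not be read from these genes, and "mesenchymal" is used below for what they are known for.

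Promoter sequences were taken from RefSeq (GRCh38.p14) for TWIST2, CD44 and S100A6. Promoters of SNAI2, CCN1, LUM and COL8A1 were not searched. The sequences are shown because genes that moved together may be compared for the letters they share. Capitals mark the GC box, GGGCGG on either strand. For TWIST2 the 197 bases before the annotated transcript start are given (chr2:238847835-238848031, plus strand). For CD44 (chr11:35138999-35139028, plus strand) and S100A6 (chr1:153536056-153536085, minus strand) 30 bases are given, both of which lie in the first exon of a longer annotated transcript.
TWIST2: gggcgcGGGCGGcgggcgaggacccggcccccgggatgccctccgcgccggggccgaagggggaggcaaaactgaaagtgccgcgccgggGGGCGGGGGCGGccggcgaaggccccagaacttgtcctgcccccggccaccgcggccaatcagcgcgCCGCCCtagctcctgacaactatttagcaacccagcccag
CD44: cgGGGCGGgggcagaggggcCCGCCCggga
S100A6: gcgcGGGCGGgacttGGGCGGGCGGggtgg

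Over the whole 300-base windows, from 250 bases before to 50 after the RefSeq start, the GC box was found 4 times in TWIST2, 2 times in CD44 and 3 times in S100A6. It is common, being present in 44.6% of 27305 RefSeq promoters and in 72.9% of the 1334 promoters of genes in the table. Motifs of factors known from the mesenchymal state were searched as well. The E-box CANNTG was found 2 times in S100A6 and not in the windows of TWIST2 or CD44 (68.9% of all promoters and 58.5% of those of genes in the table hold it), and its SNAIL-bound form CAGGTG, which is contained in it, was in none of the 3 (20.6% and 16.3%). The TEAD motif GGAATG (14% and 9.37%), the AP-1 motif TGANTCA (7.76% and 4.5%), the CArG box (1.29% and 1.72%) and the TATA box TATAAA (12.0% and 5.40%) had no match in these windows. With only 3 windows, nothing is read from the missing matches. These are matches of letters on both strands in a short window and do not show binding.

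TWIST2 encodes a basic helix-loop-helix factor that represses differentiation genes (ENSG00000233608, chromosome 2, 238848032 to 238910543, plus strand, GRCh38). Its standardised values were -0.15, -1.97 and -0.97 in Tau-WT libraries 1, 2 and 3, and 0.61, 1.31 and 0.33 in Tau-K174Q libraries 4, 5 and 6. They were 0.09, 0.62 and 1.14 in Tau-S199E libraries 10, 11 and 12, and -0.90, -0.90 and 0.80 in Tau-K174Q-S199E libraries 16, 17 and 18. All libraries of both single replacements lay above all Tau-WT libraries, while the libraries of the double replacement split, with 2 near Tau-WT and library 18 near the single replacements. TWIST2 had the widest spread of the 7 genes in Tau-WT (SD 0.91, n = 3). The authors' deposited table gave TWIST2 a log2 fold change of -1.71 (adjusted p = 0.0192).

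SNAI2 encodes the zinc-finger repressor SLUG, which acts in neural crest migration (ENSG00000019549, chromosome 8, 48917604 to 48921740, minus strand). Its values were -0.98, -1.65 and -1.07 under Tau-WT, 0.87, 0.08 and 0.80 under Tau-K174Q, 0.35, 0.23 and 1.52 under Tau-S199E, and -0.70, -0.62 and 1.19 under Tau-K174Q-S199E, in the same order of libraries. It was the only one of the 7 genes in which all 3 libraries of the double replacement lay above all of Tau-WT, and library 18 was the second highest of the 12. The authors' deposited table gave a log2 fold change of -2.46 (adjusted p = 0.0261), the weakest adjusted p of the 7.

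CCN1 encodes a matricellular protein that binds integrins and is a much-used readout of YAP and of serum response factor (ENSG00000142871, chromosome 1, 85580761 to 85583962, plus strand). Its values were -1.35, -1.43 and -1.08 under Tau-WT, 0.95, 1.02 and 0.55 under Tau-K174Q, 0.25, 0.49 and 1.13 under Tau-S199E, and -0.31, -1.12 and 0.90 under Tau-K174Q-S199E. The Tau-WT libraries were close together (SD 0.18, n = 3), and those of the double replacement were spread widely (SD 1.02). Its log2 fold change in the authors' deposited table, -3.47 (adjusted p = 0.00124), was the largest in size of the 7 and ranked 55 of the 1676 genes by size.

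CD44 encodes the main cell-surface receptor for hyaluronan (ENSG00000026508, chromosome 11, 35138870 to 35232402, plus strand). Its values were -0.58, -0.92 and -0.92 under Tau-WT, 0.09, 0.37 and 0.21 under Tau-K174Q, 0.88, 1.0 and 2.02 under Tau-S199E, and -0.97, -1.39 and 0.23 under Tau-K174Q-S199E. The 3 constructs Tau-WT, Tau-K174Q and Tau-S199E formed separate steps with no overlap, and libraries 16 and 17 of the double replacement were the lowest of the 12. The authors' deposited table gave a log2 fold change of -1.23 (adjusted p = 0.000928). CD44 overlaps the antisense gene CD44-AS1. No strand setting of the counting was found in the sources, so it is unknown whether reads of the pair were kept apart.

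LUM encodes lumican, a small leucine-rich proteoglycan that spaces collagen fibrils (ENSG00000139329, chromosome 12, 91102629 to 91111831, minus strand). Its values were -0.85, -1.41 and -0.61 under Tau-WT, 0.69, 0.46 and -0.37 under Tau-K174Q, 0.84, 0.06 and 2.34 under Tau-S199E, and -0.48, -0.79 and 0.14 under Tau-K174Q-S199E. Library 12 stood far above the rest, and the SD of Tau-S199E, 1.16 (n = 3), was the widest of any gene and construct among the 7. The log2 fold change in the authors' deposited table was -3.36 (adjusted p = 0.000877).

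COL8A1 encodes the alpha 1 chain of the short-chain collagen VIII (ENSG00000144810, chromosome 3, 99638475 to 99799226, plus strand). Its values were -1.25, -0.87 and -0.68 under Tau-WT, -0.08, 0.23 and -0.40 under Tau-K174Q, 1.43, 1.19 and 1.90 under Tau-S199E, and -0.81, -0.42 and -0.25 under Tau-K174Q-S199E. Library 18 was close to the other libraries of its construct here, and the 3 libraries of the double replacement lay within an SD of 0.29 (n = 3). The authors' deposited table gave a log2 fold change of -1.15 (adjusted p = 0.00176), the smallest in size of the 7.

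S100A6 encodes calcyclin, a calcium-binding protein of migrating and proliferating cells (ENSG00000197956, chromosome 1, 153534599 to 153536244, minus strand). Its values were -0.73, -1.38 and -1.08 under Tau-WT, 0.50, 0.38 and 0.15 under Tau-K174Q, 0.69, 0.74 and 1.97 under Tau-S199E, and -0.86, -0.98 and 0.60 under Tau-K174Q-S199E. Tau-WT, Tau-K174Q and Tau-S199E again formed separate steps. The log2 fold change in the authors' deposited table was -1.73, with the lowest adjusted p of the 7 (0.000272, rank 53 of 1676). An annotated antisense gene overlaps S100A6 as well.

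**Figure D1:**
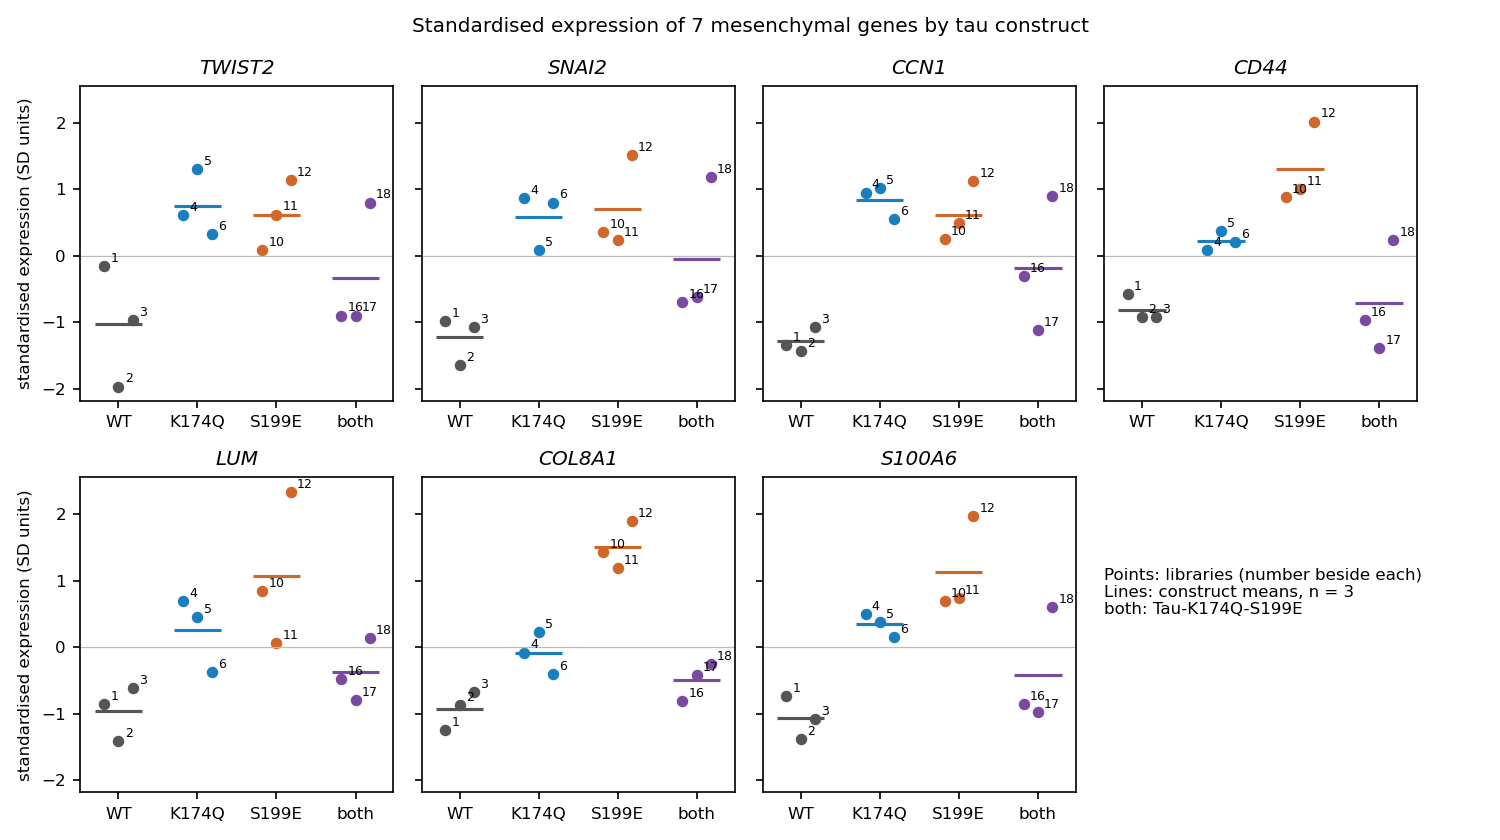
Standardised expression (vertical axis, SD units of each gene) of the 7 genes in the 12 libraries, grouped by construct on the horizontal axis; points are libraries with their numbers, lines are means of 3 libraries. Tau-WT lies lowest in every panel by its mean, library 12 is the highest of Tau-S199E and library 18 the highest of Tau-K174Q-S199E in all 7 panels.

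By their means the 7 genes had the order Tau-WT, Tau-K174Q-S199E and then the single replacements. The mean over the 7 genes was -1.05 ± 0.29 under Tau-WT, -0.36 ± 0.77 under Tau-K174Q-S199E, 0.42 ± 0.20 under Tau-K174Q and 0.99 ± 0.63 under Tau-S199E (SD, n = 3 each). The libraries of Tau-S199E and of Tau-K174Q lay above those of Tau-WT without overlap in 7 of 7 genes each. Over the table, this held for 846 of the 1676 genes (50.5%) with Tau-S199E and for 730 (43.6%) with Tau-K174Q. Only genes whose mean was above that of Tau-WT could show it. These were 886 genes (52.9%) in the first comparison and 885 (52.8%) in the second. Most genes that could show it therefore did, and it is not particular to the 7. The genes were proposed with the pattern over the constructs known, and the sign of the first contrast is tied to that of the deposited fold change in every gene, so the counts are a description and nothing is read from them. The same holds for the differences from Tau-WT, which ran from 1.65 (TWIST2, SE 0.62) to 2.44 (COL8A1, SE 0.26) with Tau-S199E and from 0.85 (COL8A1, SE 0.26) to 2.13 (CCN1, SE 0.47) with Tau-K174Q. The difference of LUM with Tau-S199E, 2.04 (SE 0.59), was 1.41 without library 12.

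By their means, the genes fell into a pair of patterns by the step from Tau-K174Q to Tau-S199E. The authors placed TWIST2, SNAI2 and CCN1 in their cluster 3, which holds 21.1% of the table, and CD44, LUM, COL8A1 and S100A6 in cluster 4, which holds 31.8%. The sources do not say how clusters were made, so they serve only as labels. In the first pattern the single replacements had means within their spread: the mean of the 3 genes was 0.72 ± 0.14 under Tau-K174Q and 0.64 ± 0.54 under Tau-S199E (SD, n = 3). In the second, Tau-K174Q lay between Tau-WT and Tau-S199E: the mean of the 4 genes was 0.19 ± 0.25 under Tau-K174Q and 1.26 ± 0.70 under Tau-S199E. The latter leans on library 12, where the mean of the 4 genes was 2.06, against 0.96 in library 10 and 0.75 in library 11. The libraries of LUM overlapped between Tau-K174Q and Tau-S199E.

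Tau-K174Q minus Tau-S199E asks whether the acetylation mimic and the phosphorylation mimic differ. COL8A1 was lower with Tau-K174Q by a difference of -1.59 (SE 0.26, 95% interval -2.19 to -1.0), CD44 by -1.07 (SE 0.44, interval -2.09 to -0.06), LUM by -0.82 (interval -2.17 to 0.53) and S100A6 by -0.79 (interval -1.92 to 0.34). The transcription factors and CCN1 had differences near 0, with intervals that still allow more than 1 SD unit in either direction for the factors: 0.13 for TWIST2 (-1.30 to 1.57), -0.11 for SNAI2 (-1.44 to 1.21) and 0.22 for CCN1 (-0.87 to 1.31). None of the 7 passed Benjamini-Hochberg adjustment over the table in limma, where the adjusted p ran from 0.0936 for COL8A1 to 0.918 for SNAI2 and 0.0597% of the genes were called. That share is 1 of 1676 genes, with 269 at an unadjusted p under 0.05 and 0 called by limma's moderated test. The libraries did not overlap in CD44, COL8A1 and S100A6, where Tau-K174Q was lower, which is 3 of 7 genes against 17.7% of the table (296 of 1676 genes). That share counts all genes, while only the 47.4% that were lower with Tau-K174Q could show it. Of the 886 genes with a negative deposited sign, which all 7 have, 80.1% were lower with Tau-K174Q, with a median difference of -0.61. The lower values are thus not particular to these genes. This contrast shares the Tau-S199E libraries with Tau-S199E minus Tau-WT and is not independent of it. Without library 12 the difference of S100A6 was -0.37, that of CD44 -0.72, that of LUM -0.19 and that of COL8A1 -1.40, while those of TWIST2 (0.39), SNAI2 (0.30) and CCN1 (0.48) were all above 0. Without libraries 12 and 18, CCN1 was higher with Tau-K174Q without overlap of libraries, as were 24.5% of the genes in the table.

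Tau-K174Q-S199E minus Tau-WT asks whether the double replacement leaves the genes where wild-type tau has them. All 7 differences were above 0, as were 56.3% of those in the table and 95.7% of those of the 886 genes with a negative deposited sign. They were largest in SNAI2 (1.19, SE 0.57, 95% interval -0.14 to 2.51) and CCN1 (1.10, SE 0.47, interval 0.01 to 2.19), 0.70 in TWIST2, 0.65 in S100A6, 0.58 in LUM and 0.44 in COL8A1 (SE 0.26, interval -0.15 to 1.04), and smallest in CD44 (0.10, SE 0.44, interval -0.92 to 1.11). None passed in limma (adjusted p from 0.533 to 0.895), and 0 of the 1676 genes (0%) did, with 127 at an unadjusted p under 0.05 and 0 by the moderated test. Only SNAI2 had libraries without overlap, against 7.28% of the table. Library 18 carries much of these differences: without it they were 0.57 for SNAI2, 0.56 for CCN1, 0.13 for TWIST2, 0.14 for S100A6, 0.32 for LUM and -0.37 for CD44. This contrast is orthogonal to the interaction but shares the Tau-WT libraries with Tau-S199E minus Tau-WT.

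One contrast of the group means is orthogonal both to Tau-S199E minus Tau-WT and to the interaction: the mean effect of K174Q, which averages Tau-K174Q minus Tau-WT and Tau-K174Q-S199E minus Tau-S199E. It asks which way K174Q moves the genes on average over tau without and with S199E, and neither of those contrasts fixes its sign. The differences averaged had opposite signs in each of the 7 genes, for example 2.13 and -0.80 in CCN1 and 0.85 and -2.00 in COL8A1. The sign of the mean therefore shows only which of them was larger in size, not an effect present on both backgrounds. In this mean the genes did not share a direction. CCN1 (0.66, SE 0.33, 95% interval -0.11 to 1.43), SNAI2 (0.54, SE 0.41, interval -0.40 to 1.47) and TWIST2 (0.42, SE 0.44, interval -0.60 to 1.43) had positive values, and COL8A1 (-0.58, SE 0.18, interval -0.99 to -0.16), CD44 (-0.49, SE 0.31, interval -1.21 to 0.23), LUM (-0.12, SE 0.41) and S100A6 (-0.07, SE 0.35) negative ones. None of the 7 passed in limma, each with an adjusted p of 0.996, and 0 of the 1676 genes (0%) did, with 53 (3.16%) at an unadjusted p under 0.05 and 0 by the moderated test. COL8A1 was the only one of the 7 among these 53 (unadjusted p = 0.0134 in limma). Without library 18 the values were 0.39 for CCN1, 0.23 for SNAI2, 0.13 for TWIST2, -0.72 for CD44, -0.64 for COL8A1, -0.25 for LUM and -0.32 for S100A6. Without library 12, CD44 was -0.31, and LUM (0.20) and S100A6 (0.14) were above 0. The median over the 7 genes was -0.07 and that over all genes 0.05.

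**Figure D2:**
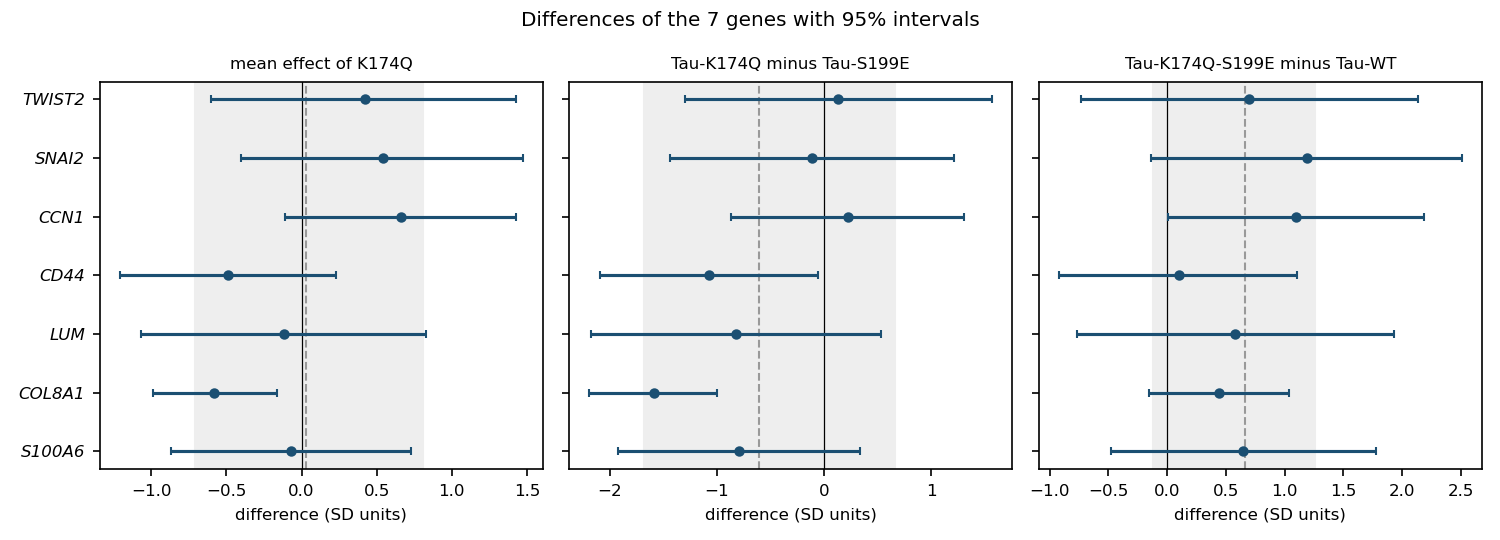
Differences of the 7 genes (points, SD units, horizontal axis) with 95% intervals in the 3 contrasts; the grey band holds the middle 95% of the 886 genes with a negative deposited sign, the dashed line is their median. In the mean effect of K174Q the points run from -0.58 (COL8A1) to 0.66 (CCN1) and all 7 lie within the band; in Tau-K174Q minus Tau-S199E the upper 3 genes lie near 0 and the lower 4 at -0.79 or below.

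K174Q thus went with opposite differences on the 2 backgrounds in each of the 7 genes. Relative to Tau-WT it was higher in all 7, and relative to Tau-S199E the double replacement was lower in all 7, from -0.74 (SNAI2, SE 0.57) to -2.01 (CD44, SE 0.44). Over the table, the first difference had the sign opposite to the deposited fold change in 1675 of 1676 genes. The second had the same sign as the deposited fold change in 1672, so opposite differences are not particular to the 7. In CD44, COL8A1 and S100A6 the libraries of Tau-K174Q-S199E lay below those of Tau-S199E without overlap, 3 of 7 genes against 22.1% of the table. That share is 370 of all 1676 genes, and only 886 of these have a negative deposited sign, as the 7 do. The other shares of the table in this paragraph also count all 1676. Tau-K174Q-S199E below Tau-S199E and Tau-K174Q above Tau-WT, both without overlap, held together for CD44, COL8A1 and S100A6. The same was true of 14.3% of the table and of 27.1% of the 886 genes with a negative deposited sign. With libraries 12 and 18 left out, Tau-K174Q-S199E lay below Tau-S199E without overlap in 7 of 7 genes, against 49.8% of the table. With the same libraries left out, Tau-K174Q-S199E also lay below Tau-K174Q in 7 of 7 genes, against 41.3%. With all libraries it did so in 0 of 7 genes, against 5.97% of the table. As the deposited fold change has the sign of this interaction in every gene of the table, these values are given as a description with no test.

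Single libraries moved the 7 genes together within a construct. Library 12 was the highest of Tau-S199E in 7 of 7 genes and library 18 the highest of Tau-K174Q-S199E in 7 of 7, and this was also so in 88.3% and 88.4% of the 886 genes with a negative deposited sign. The median deviation from the construct mean was 0.72 for the 7 genes in library 12, as in the 886 genes, and 1.01 against 0.83 in library 18. Library 2 was the lowest of Tau-WT in 6 of 7 genes, COL8A1 being the exception, against 50.9% of the 886. Depth and RNA quality of these libraries are unknown, and their part in the result was not tested.

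**Figure D3:**
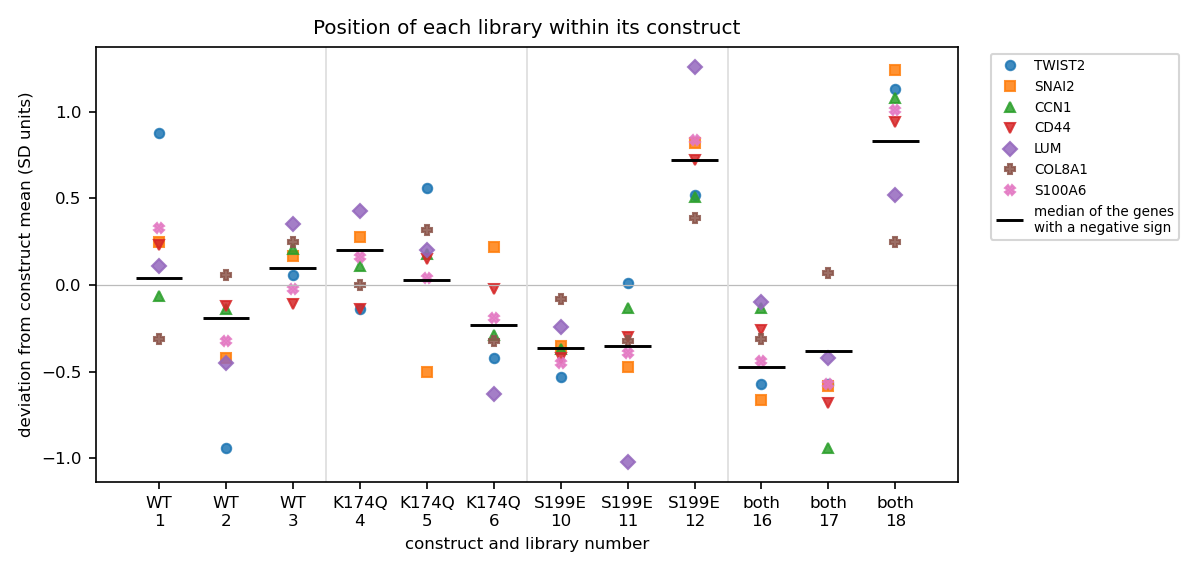
Deviation of each gene from the mean of its construct (vertical axis, SD units) in the 12 libraries (horizontal axis, construct and library number); symbols are the 7 genes and black bars the median of the 886 genes with a negative deposited sign. Library 12 and library 18 lie above 0 for all 7 genes, and COL8A1 has the smallest deviation in library 18 (0.25).

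Over the 12 libraries the Pearson correlation between the 7 genes ran from 0.60 (TWIST2 and COL8A1) to 0.96 (CD44 and S100A6), with a median of 0.85 over the 21 pairs, against a median of 0.78 over pairs of the 886 genes. Deviations from the construct means, which leave out the differences between constructs, correlated with a median of 0.70, against 0.56 in the 886 genes. S100A6 with CD44 (0.95) and with SNAI2 (0.92) was highest, and COL8A1 with TWIST2 (0.34) lowest. Without libraries 12 and 18 the median correlation of the deviations was 0.32 for the 7 genes and 0.13 for the 886. These correlations share the same 12 libraries and their depth, and are given as a description.

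The genes with the most similar pattern came from many functions. With the mean profile of the 7 genes, 352 other genes of the table had a Pearson correlation above 0.9 over the 12 libraries. The 10 highest, from 0.987 to 0.983, were MGST3, a glutathione transferase of the membrane, CTNNB1, which encodes beta-catenin, CBWD5, the Polycomb gene PHC2, ID1, PODXL, the ribosomal RPS29, THAP11, the splicing factor gene SRSF7 and the tubulin cofactor gene TBCA. For single genes the closest were BIRC5 (0.971) and OIP5 (0.969) for TWIST2, both of mitosis, SPCS1 (0.971) and SLC25A3 (0.957) for SNAI2, EEF1A1 and PFN1 (both 0.976) for CCN1, GSE1 (0.963) and S100A6 (0.961) for CD44, the proteasome gene PSMC2 (0.986) and ATP5PB (0.973) for LUM, PPT2 (0.980) and FAM189B (0.951) for COL8A1, and TBCA (0.986) and PODXL (0.984) for S100A6. S100A6 had 344 genes above 0.9 and COL8A1 62.

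Other genes of the pathways were taken from 13 lists of 335 genes in all, and 25 of them besides the 7 were in the table. Of these, 17 had a negative deposited sign (68.0%) and 8 a positive one, against 52.9% negative in the table. Their median deposited log2 fold change was -1.39, against -0.85 for the table. The sign restates the table's selection, so it says only which way each gene goes: a negative sign went with a lower mean in Tau-WT than in both single replacements. In the mean effect of K174Q none of the 25 passed in limma (adjusted p of 0.996 or above).

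Among transcriptional regulators, SNAI1, which encodes the sister protein of SLUG, had a log2 fold change of -3.17 in the authors' deposited table (adjusted p = 0.00443) and means of -0.97 ± 0.31 under Tau-WT, 0.50 ± 0.62 under Tau-K174Q, 0.92 ± 0.76 under Tau-S199E and -0.46 ± 1.03 under Tau-K174Q-S199E (SD, n = 3). ID1 (-2.19) and ID3 (-2.74) encode inhibitors of the E proteins with which TWIST factors pair. ID3 had the lowest deposited adjusted p of the listed genes (1.94e-05). CREG1 (-2.06) and the Polycomb subunit gene EED (-2.09) had the same sign, and RCOR1 (1.63), which encodes a corepressor recruited by SNAIL proteins, the opposite one. The fold changes and adjusted p-values here come from the authors' deposited table, the means from its library columns.

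Of the YAP and TEAD list, AMOTL2 (-2.29), CRIM1 (-1.77) and the Hippo kinase adaptor gene MOB1A (-1.39) had the sign of CCN1 in the authors' deposited table and WWC1 (1.03), an upstream activator of Hippo signalling, the opposite sign. AMOTL2 had means of 0.77 ± 0.05 under Tau-K174Q and 0.73 ± 0.40 under Tau-S199E against -1.18 ± 0.38 under Tau-WT (SD, n = 3). Of the AP-1 and serum response genes, JUNB (-1.77), the phosphatase gene DUSP2 (-1.50) and SRF (-1.33) had the sign of CCN1 in the authors' deposited table, and the other listed members besides CCN1 were not in it. JUNB had means of -1.21 ± 0.48 under Tau-WT, 0.66 ± 0.24 under Tau-K174Q and 0.55 ± 0.56 under Tau-S199E (SD, n = 3).

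The adhesion genes did not share a direction. CDH2, which encodes the N-cadherin of mesenchymal and neural cells, had a log2 fold change of 1.30 in the authors' deposited table and was highest under Tau-K174Q-S199E (0.91 ± 0.85) and Tau-WT (0.55 ± 0.96) and lower under Tau-K174Q (-0.67 ± 0.38) and Tau-S199E (-0.79 ± 0.64). Its sign was thus opposite to that of SNAI1, SNAI2 and TWIST2. CTNNB1, whose protein binds cadherins, had the sign of the 7 genes (-1.17). The CD44 linker genes RDX (1.08) and EZR (0.62), whose proteins tie CD44 to actin, had the sign opposite to CD44. EZR was highest under Tau-WT (1.38 ± 0.33) and lowest under Tau-S199E (-0.86 ± 0.60). TPM1 (1.09), an actin-binding tropomyosin gene, and LTBP3 (1.63), which holds latent TGF-beta in the matrix, were also opposite.

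**Figure D4:**
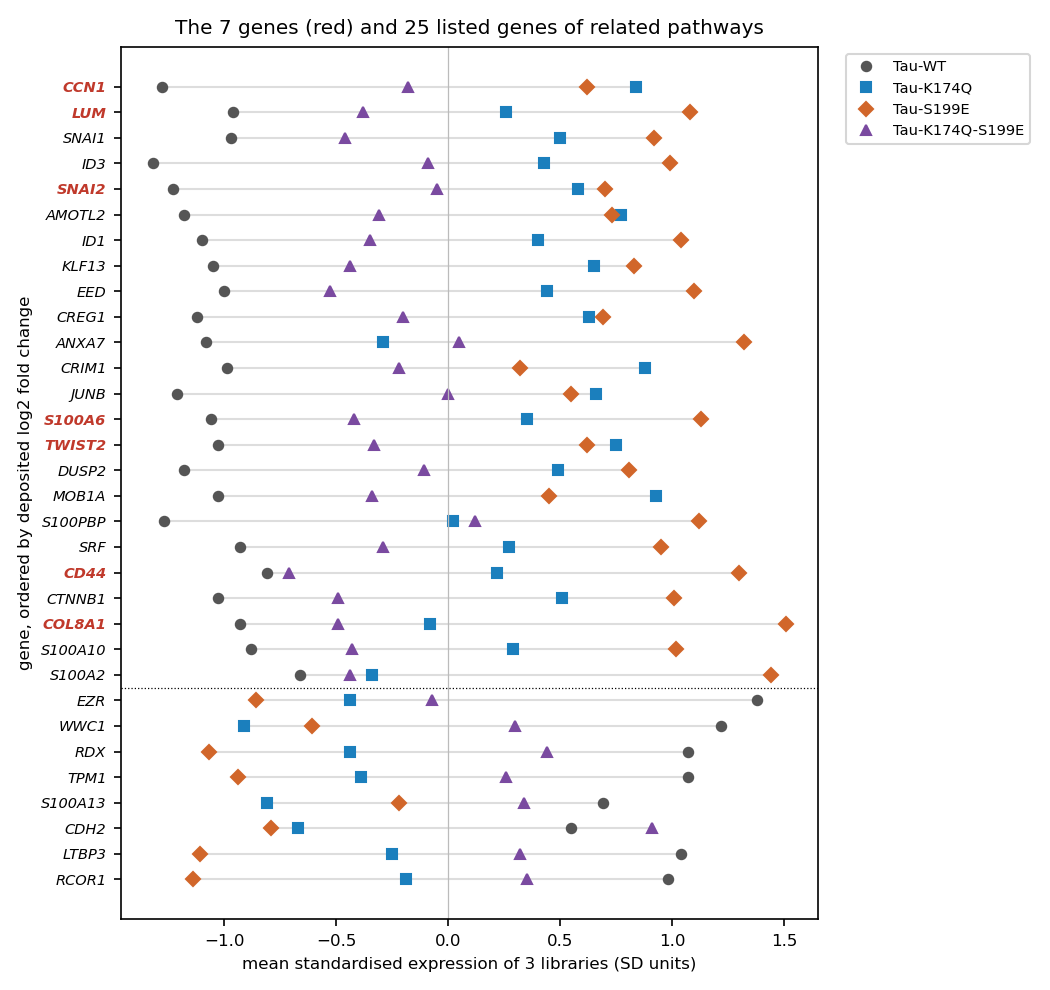
Mean standardised expression of 3 libraries (horizontal axis, SD units) with each construct (symbols) for the 7 genes (red) and the 25 other listed genes in the table (vertical axis, ordered by deposited log2 fold change; the dotted line divides negative from positive). Above the line Tau-WT has the lowest mean of the constructs; below it EZR, RDX, TPM1 and CDH2, among others, have Tau-S199E lowest.

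COL8A1 and LUM were the only 2 of 41 listed collagen, proteoglycan and collagen-processing genes in the table. By the deposited gene annotation, extracellular matrix organization was assigned to 11 of the 1676 genes, 4 of them CCN1, CD44, LUM and COL8A1. Of the other 7, DAG1 (log2 fold change -1.56 in the authors' deposited table), FGF2 (-1.80), ITGB8 (-1.58) and ITGAE (-1.17) had the sign of these 4 genes, and the metalloprotease genes ADAM12 (1.13) and ADAM15 (1.76) and the inhibitor gene SPINK5 (0.85) the opposite one. FGF2, which encodes basic fibroblast growth factor, had a mean of 0.16 ± 0.47 under Tau-K174Q and 1.26 ± 0.95 under Tau-S199E (SD, n = 3). TWIST2, SNAI2 and CCN1 were annotated to positive regulation of cell migration with 24 other genes, 27 in all, of which 14 had a negative and 13 a positive sign.

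S100A6 lies in the S100 gene cluster of chromosome 1, and other genes of this cluster were in the table. S100A2, whose start is 31.6 kb away on the same strand, had the same sign (-1.15 in the authors' deposited table) but was low under Tau-K174Q (-0.34 ± 0.26) and high under Tau-S199E (1.44 ± 0.48, SD, n = 3). S100A13, 95.1 kb away and also on the minus strand, had the opposite sign (1.2), with 0.69 ± 1.04 under Tau-WT and -0.81 ± 0.28 under Tau-K174Q. S100A10, 1541.9 kb away on that strand, had the same sign as S100A6 (-1.15), with -0.88 ± 0.11 under Tau-WT and 1.02 ± 1.29 under Tau-S199E. Genes of the cluster thus did not share a sign. S100PBP (-1.39) and ANXA7 (-1.85) completed the S100 and annexin list, 5 of whose 6 genes in the table had a negative sign. Within 1 Mb of the other 6 genes the table held 3 genes in all, NDUFA10 near TWIST2 and MCM4 and PPDPFL near SNAI2.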

How the data were processed

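The deposited table holds 1676 genes with 12 library columns, each value being a score that the authors scaled by gene (gene SD 1.0000 throughout, from the values). The deposited log2 fold change and the deposited adjusted p-value are named in the file header, without their contrast. STAR 2.5.3a, RSEM 1.2.31, DESeq2 and GRCh38 appear in the submitters' processing notes without a role. Per the labels' protocols, 400 ng of RNA entered a kit that reads 3′ ends. Counts, depth, gene filter and strand setting were not given in the sources used here.

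Column names give the construct and a library number, not the labels' replicate number. A mean for each construct was fitted to all 12 libraries by gene with limma 3.58.1 (R 4.3.3). Contrasts were tested two-sided with the gene's ordinary residual variance (8 degrees of freedom) and Benjamini-Hochberg adjustment over 1676 genes, threshold 0.05, checked on simulated data. Alternatives were moderated variances, ranks within a gene, 6 libraries, and leaving out libraries. Gene positions are from GENCODE release 29 (GRCh38) and promoters from RefSeq. 91 genes without a symbol in the file were looked up by Ensembl ID, and 90 matched. Named genes are the 7, the 2 closest by Pearson correlation to each, the 10 closest to their mean, and listed genes in the table. The genes and lists were chosen with earlier results of these data known. Promoter motifs, annotation terms and the S100 neighbours were chosen after the data were seen.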

Additional observations from a re-analysis of the deposited data

Results flagged for a closer look

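The effect of K174Q had opposite directions, with no overlap of libraries in either case, in tau without and with S199E in 3 of the 7 genes, against 14.3% of the 1676 genes and 27.1% of the 886 with a negative deposited sign. The interaction was -3.04 SD units in CD44, -2.85 in COL8A1 and -2.96 in S100A6. The difference was not tested, because the deposited fold change has its sign in every gene of the table.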

How the results depend on the processing

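The number of genes called for Tau-S199E minus Tau-WT was 1509 of 1676, and 833 to 1572 with single libraries left out (833 without library 12). The table is a selection, and the deposited sign is opposite to that of this contrast in 1676 of 1676 genes and to that of Tau-K174Q minus Tau-WT in 1675. The counts for these contrasts are therefore a description, and no response is read from them. For Tau-K174Q minus Tau-WT the number called was 0, with 1004 by moderated variances, 26 by ranks, 981 without libraries 12 and 18, and 819 in 6 libraries. It was 0 to 675 with single libraries left out, 48 without library 16 and 675 without library 18. Tau-K174Q minus Tau-S199E had 1 call, 0 by moderated variances, by ranks and in 6 libraries, 2 without libraries 12 and 18, and 0 to 3 with single libraries left out (3 without library 16 or 17). Tau-K174Q-S199E minus Tau-WT had 0 to 2 (2 without library 16) and the mean effect of K174Q 0 to 1 (1 without library 11) with single libraries left out. Leaving out libraries 12 and 18 together was chosen after seeing the data.

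The values of the 7 genes kept their sign in 537 recomputations and changed it in 16. Of those that kept it, 112 belong to Tau-S199E minus Tau-WT and 112 to Tau-K174Q minus Tau-WT. Those signs are tied to the deposited one in 1676 and 1675 of 1676 genes, so their stability says nothing. The changes were 3 of 112 in Tau-K174Q-S199E minus Tau-WT, 5 of 112 in Tau-K174Q minus Tau-S199E and 8 of 105 in the mean effect of K174Q. CD44 in Tau-K174Q-S199E minus Tau-WT was -0.33 by ranks and -0.37 without libraries 12 and 18, and -0.37 to 0.44 with single libraries left out. In Tau-K174Q minus Tau-S199E, SNAI2 was 0.30 without libraries 12 and 18 and -0.35 to 0.30 with single libraries left out (0.14 without library 5), and TWIST2 was -0.15 to 0.39 (-0.13 without library 10). In the mean effect of K174Q, LUM was 0.67 by ranks, 0.07 without libraries 12 and 18 and -0.37 to 0.20 with single libraries left out (0.04 without library 6). S100A6 was -0.32 to 0.14 there (0.01 without library 1, 0.04 without library 16, 0.07 without library 17). The cause was not tested. Values by ranks are in rank units. No paired analysis was possible because the columns carry no replicate number. Depth is unknown, and 3 libraries in a group limit the precision.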
